A study of Mus musculus with 8 samples.

Results

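The MAP kinase feedback inhibitor genes described here are 10 genes that brake signalling through the ERK, JNK and p38 kinases: Dusp1, Dusp4, Dusp5, Dusp6, Dusp10, Spry1, Spry2, Spry4, Spred1 and Spred2. They were picked by symbol as a known gene group, by a rule that uses no measured value but was written with earlier results of these data known, and are 10 of the 55353 rows of the count table. All 10 passed the filter on low counts, which left 13992 genes tested. Transcripts were measured by polyA mRNA sequencing in vascular smooth muscle cells from the mouse aorta, in 4 genotypes with 2 libraries each, 8 in all. The genotypes were E12 knockout (E12 KO), E12 wild type (E12 WT), E47 knockout (E47 KO) and E47 wild type (E47 WT). All cells had been frozen, were revived in culture dishes and were lysed there, with no treatment named. The strain, age and knockout alleles of the mice are not stated. E12 and E47 are splice isoforms of the E protein E2A, a basic helix-loop-helix transcription factor encoded by Tcf3 that binds E-box DNA. Nothing in the labels tells if both libraries of 1 genotype stem from different cultures or mice, so the p-values rest on the spread between these libraries, and this may be technical.

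Growth factors acting on receptor tyrosine kinases switch on Ras, which starts a relay of the kinases Raf, MEK and ERK, while stress and cytokines act more on JNK and p38. The relay induces its own brakes. DUSP phosphatases remove the activating phosphates from MAP kinases, Sprouty proteins act upstream between the receptor and Raf, and Spred proteins bring the Ras-inactivating protein neurofibromin to the membrane. Because several of these genes are transcribed in answer to ERK itself, their mRNA is often read as a trace of recent pathway activity. In smooth muscle this pathway carries mitogenic signals such as that of platelet-derived growth factor.

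Library totals ran from 13909230 to 27517374 counts, and the 10 genes had between 144 and 5742 counts in a library, against a floor of 3 counts. Levels are CPM, the counts relative to a library size scaled by TMM, a trimmed mean of log ratios between libraries. Changes are on the log2 scale, each with its standard error (SE). Adjusted p-values are from edgeR's quasi-likelihood test with Benjamini-Hochberg adjustment over all 13992 genes. Genes with an adjusted p below 0.05 passed the test. Tcf3 was at 143 to 145 CPM in the E12 KO against 107 to 109 CPM in the E12 WT, and at 128 CPM in both E47 KO libraries against 93.7 to 94.5 CPM in the E47 WT. A count per gene does not separate its isoforms, so it does not check which of them a library had lost. Of 12 smooth muscle markers all 12 were tested. Their summed level was 3489 to 3634 CPM in the E12 KO and 4532 to 4632 CPM in the E12 WT. It was 4196 to 4614 CPM in the E47 KO and 7990 to 8121 CPM in the E47 WT. Acta2 and Cald1 made up most of each sum. Mean Myh11 was 2.43 CPM in the E12 KO, 7.44 in the E12 WT, 6.92 in the E47 KO and 98.2 in the E47 WT. Between the wild types 9 of the 12 were lower in the E12 WT and 1 was higher, against 27.6% and 27.8% of all genes. The E47 WT libraries stood apart: their 14 endothelial markers summed to 731 to 804 CPM, against 29.0 to 29.3 CPM in the E12 KO, 46.8 to 47.5 CPM in the E12 WT and 21.6 to 23.4 CPM in the E47 KO. Cdh5, the endothelial cadherin, was at 167 to 174 CPM in the E47 WT and at most 0.972 CPM in any other library. Of the 13 endothelial markers tested, 11 were lower in the E12 WT than in the E47 WT. The other 2, Flt1 and Kdr, were higher in the E12 WT. Mean Flt1 was 34.9 CPM in the E12 WT and 27.5 CPM in the E47 WT. The E12 WT pair also stood apart, with more spread between its libraries than any other pair: a chi-square per degree of freedom of 13.6, against 4.75 to 5.07 in the other genotypes. Every E12 change below has this pair as its denominator, and the counts of members past the test in the E12 KO were the same without either of its libraries. Every value for the E47 WT below therefore comes from libraries with endothelial transcripts, whose part in the results was not tested, and in bulk RNA fewer cells of a type and less RNA per cell cannot be told apart.

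The 10 genes did not move as a block. In the E12 KO, 3 rose (Dusp4, Spry4 and Spred1), 4 fell (Dusp1, Dusp6, Dusp10 and Spry2) and 3 did not pass the test. Of all genes tested, 21.9% rose and 24.5% fell in that comparison, 46.4% in either direction. In the E47 KO, 3 rose (Dusp1, Dusp5 and Dusp10), 5 fell (Dusp4, Dusp6, Spry1, Spry2 and Spred1) and 2 did not pass. There 27.7% of all genes rose and 27.5% fell, 55.2% in either direction. With changes this common across the genome, the counts alone set the 10 genes little apart, and what follows is which member moved which way. Their median log2 change was -0.05 in the E12 KO and -0.22 in the E47 KO, against -0.01 and 0.01 over all genes. The median size of the change regardless of sign was 0.48 and 0.66 for the 10 genes, and 0.31 and 0.35 for all genes. Scaling by total counts alone shifted all genes by a median of 0.09 in the E12 and 0.16 in the E47 comparison. It put 59.4% and 67.1% of calls on the higher side, against 47.2% and 50.1% with TMM. The 4 E12 KO falls and 3 rises were the count in every alternative run.

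**Figure D1:**
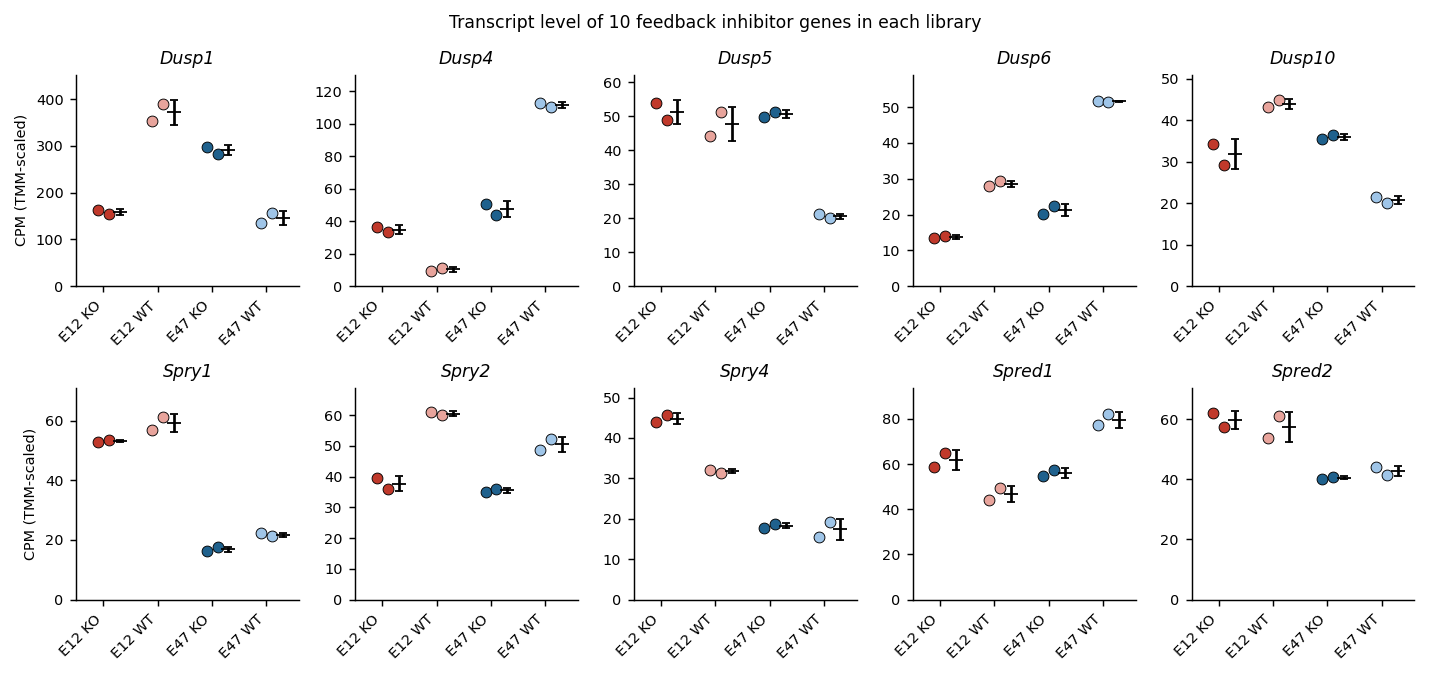
Level of each gene in CPM (vertical axes, from 0) in the 2 libraries of each genotype (coloured points), with their mean and SD (black). Dusp4 spans the widest range, from 10.3 CPM in the E12 WT to 112 CPM in the E47 WT, and the points of a genotype lie close together compared with the gaps between genotypes for most genes.

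Dusp1, Dusp4 and Dusp5 encode inducible nuclear phosphatases. Dusp1 (MKP-1), an immediate early gene whose product acts mostly on p38 and JNK, was at 164 and 154 CPM in the E12 KO libraries, against 353 and 390.2 CPM in the E12 WT. In the E47 lines it was at 298 and 283 CPM in the KO, against 135 and 156 CPM in the WT. The knockouts thus lay on opposite sides of their wild types, and the groups did not overlap in either pair. Dusp1 was 2.34-fold lower in the E12 KO (log2 change -1.23, SE 0.0812, adjusted p = 1.3e-08) and 2.00-fold higher in the E47 KO (1.0, SE 0.0811, adjusted p = 8.3e-08). The 2 changes differed by -2.22 on the log2 scale (SE 0.115, adjusted p = 6.6e-10). Over the 4 genotypes the order was E12 WT, E47 KO, E12 KO and E47 WT, with the libraries of the last pair overlapping.

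Dusp4 (MKP-2), whose product acts on ERK and JNK, had the widest span of the 10 genes. In the E12 KO it was at 36.7 and 33.1 CPM, against 9.19 and 11.5 CPM in the E12 WT. In the E47 lines it was at 50.8 and 43.8 CPM in the KO, against 113 and 110.5 CPM in the WT. This is the mirror image of Dusp1: the E12 KO was above its wild type, the E47 KO below its own, and no neighbouring genotypes overlapped. The gene was 3.40-fold higher in the E12 KO (1.77, SE 0.117, adjusted p = 1.3e-08) and 2.35-fold lower in the E47 KO (-1.23, SE 0.0897, adjusted p = 2.5e-08). These changes differed by 3.0 (SE 0.147, adjusted p = 3.9e-10). The wild types themselves differed by -3.44 (E12 WT against E47 WT, SE 0.11, adjusted p = 1.0e-12), whereas the knockouts differed by -0.44 (E12 KO against E47 KO, SE 0.095, adjusted p = 0.0012).

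Dusp5, whose nuclear phosphatase is specific for ERK, was at 49.8 and 51.4 CPM in the E47 KO, against 21.1 and 20.1 CPM in the E47 WT. In the E12 lines it was at 53.9 and 48.9 CPM in the KO and at 44.3 and 51.4 CPM in the WT. The E47 WT was the low genotype, and the libraries of the other genotypes overlapped. Dusp5 rose in the E47 KO by 1.30 (SE 0.0907, adjusted p = 1.5e-08), while the E12 change was 0.11 (SE 0.0848, adjusted p = 0.32). The difference of the changes was -1.19 (SE 0.124, adjusted p = 1.8e-06). A gene on the opposite strand covers 22.1% of the exon length of Dusp5, and the libraries did not keep strand, so its count is uncertain to that extent.

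The promoters of Dusp1 and Dusp5 are shown because the pair moved together in the E47 KO and not in the E12 KO, and because each carries elements known to answer to signalling. RefSeq promoters (GRCm38.p6, from 250 bases before to 50 after the start) were found for 8 of the 10 genes. Capitals mark TGACG, the core of the cyclic AMP response element, on either strand, and CANNTG, the E-box, in Dusp1. In Dusp5 they mark the CArG box, the binding element of serum response factor.
Dusp1 (chr17:26508423-26508722, minus strand): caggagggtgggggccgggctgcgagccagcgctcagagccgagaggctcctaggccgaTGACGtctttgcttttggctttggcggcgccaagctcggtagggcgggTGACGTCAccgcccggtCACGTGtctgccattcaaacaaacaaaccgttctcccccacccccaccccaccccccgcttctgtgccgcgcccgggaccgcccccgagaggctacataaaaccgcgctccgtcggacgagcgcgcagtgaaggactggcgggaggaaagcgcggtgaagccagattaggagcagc
Dusp5 (chr19:53528895-53529194, plus strand): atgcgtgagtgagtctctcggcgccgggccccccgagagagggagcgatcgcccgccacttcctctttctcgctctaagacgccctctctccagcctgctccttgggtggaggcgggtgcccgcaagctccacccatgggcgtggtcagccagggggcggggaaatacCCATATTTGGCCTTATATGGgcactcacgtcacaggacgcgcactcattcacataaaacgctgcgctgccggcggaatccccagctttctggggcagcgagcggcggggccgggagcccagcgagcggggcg
Dusp1 held 3 matches to TGACG, of which 2 overlap in the palindrome TGACGTCA, 143 bases before the start. That full palindrome was in 1.79% of all 32851 promoters and in 1 of the 8 members'. The shorter TGACG was in 20.8% of all promoters and in 3 of the 8 members', those of Dusp1, Dusp5 and Spred2. The E-box of Dusp1 was CACGTG, the form in 7.15% of all promoters. Dusp5 held 1 match to TGACG, which is left in lower case, and 2 adjacent CArG boxes, 82 and 72 bases before the start, and 1.63% of all promoters held at least 1. These matches are descriptions of letters in a window and were not tested as sites.

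Dusp10 (MKP-5), whose product acts on JNK and p38, followed Dusp1 in direction. The E12 KO libraries held 34.3 and 29.3 CPM, against 43.1 and 44.8 CPM in the E12 WT, and at 35.6 and 36.5 CPM in the E47 KO, against 21.5 and 20.1 CPM in the E47 WT. No groups overlapped within a pair. It fell in the E12 KO by 0.46 on the log2 scale (SE 0.0866, adjusted p = 0.00049) and rose in the E47 KO by 0.80 (SE 0.0909, adjusted p = 3.4e-06), a difference of -1.26 (SE 0.126, adjusted p = 1.1e-06). Falling in the E12 KO and rising in the E47 KO was the pattern of 2 members, Dusp1 and Dusp10, and of 7.92% of all genes.

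Dusp6 and Spry2 were the 2 members that fell in both knockouts, as did 8.63% of all genes. Dusp6 (MKP-3) encodes the cytoplasmic phosphatase specific for ERK and is among the most direct transcriptional readouts of that kinase. The E12 KO libraries held 13.4 and 14.1 CPM of it, against 28 and 29.2 CPM in the E12 WT. In the E47 lines it was at 20.1 and 22.4 CPM in the KO, against 51.7 and 51.4 CPM in the WT. All 4 knockout libraries lay below all 4 wild-type libraries, and no neighbouring genotypes overlapped. The share of all genes with such a separation was not counted. Dusp6 was 2.08-fold lower in the E12 KO (-1.06, SE 0.0918, adjusted p = 2.5e-07) and 2.44-fold lower in the E47 KO (-1.28, SE 0.0817, adjusted p = 5.4e-09). The difference of the changes did not pass the test (0.23, SE 0.124, adjusted p = 0.15), which does not show that they were equal.

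Spry2 encodes the Sprouty protein best known as a feedback inhibitor of fibroblast growth factor signalling. Its level was 39.4 and 36.0 CPM in the E12 KO, against 61.1 and 59.9 CPM in the E12 WT, and at 35.0 and 36.0 CPM in the E47 KO, against 48.7 and 52.2 CPM in the E47 WT. Here too the 4 knockout libraries were the 4 lowest, with the share over all genes again not counted. Spry2 was 1.60-fold lower in the E12 KO (-0.68, SE 0.0765, adjusted p = 3.8e-06) and 1.43-fold lower in the E47 KO (-0.51, SE 0.0771, adjusted p = 5.2e-05), with a difference of -0.17 (SE 0.109, adjusted p = 0.22). Between the knockouts the change was 0.09 (E12 KO against E47 KO, SE 0.0787, adjusted p = 0.36).

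The promoters of Dusp6 and Spry2 are printed because these members fell together in both knockouts of an E-box binding factor. Capitals mark the single E-box (CANNTG, the same on both strands) in each.
Dusp6 (chr10:99262981-99263280, plus strand): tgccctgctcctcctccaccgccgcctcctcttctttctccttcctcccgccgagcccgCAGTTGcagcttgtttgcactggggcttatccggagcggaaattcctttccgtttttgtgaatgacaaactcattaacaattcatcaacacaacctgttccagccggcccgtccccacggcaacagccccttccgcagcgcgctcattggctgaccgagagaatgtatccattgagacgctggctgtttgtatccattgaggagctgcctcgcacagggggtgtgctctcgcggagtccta
Spry2 (chr14:105896770-105897069, minus strand): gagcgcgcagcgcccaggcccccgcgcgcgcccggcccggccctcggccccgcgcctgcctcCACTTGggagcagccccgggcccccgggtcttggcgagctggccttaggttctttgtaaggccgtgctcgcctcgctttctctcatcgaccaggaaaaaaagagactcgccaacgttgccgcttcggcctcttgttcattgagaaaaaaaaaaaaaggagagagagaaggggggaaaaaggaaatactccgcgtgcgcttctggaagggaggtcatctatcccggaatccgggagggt
E-boxes were in 4 of the 8 member promoters, those of Dusp1, Dusp6, Spry1 and Spry2, and in 72.3% of all promoters. None of the 8 held CAGGTG, the form in 20.2% of all promoters, or CAGCTG, the form in 16.3%. The letters in these windows say nothing of binding by E12 or E47, which was not measured here.

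The other Sprouty members, Spry1 and Spry4, were higher in the E12 lines than in the E47 lines, in knockouts and wild types alike. So was Spred2, described below. The share of all genes higher in both of these comparisons was not counted. Spry1 was at 53.0 and 53.6 CPM in the E12 KO and at 57.0 and 61.4 CPM in the E12 WT, but at 16.2 and 17.5 CPM in the E47 KO and 22.2 and 21.2 CPM in the E47 WT. Every E12 library was above every E47 library, and the share of all genes with such a separation was not counted. It was higher in the E12 WT than in the E47 WT (1.45, SE 0.0795, adjusted p = 5.9e-10) and in the E12 KO than in the E47 KO (1.66, SE 0.0824, adjusted p = 3.0e-10). Within the lines the change was -0.36 in the E47 KO (SE 0.0888, adjusted p = 0.0029) and -0.15 in the E12 KO (SE 0.0733, adjusted p = 0.10). The E47 fall missed the threshold with total counts as the only scaling (-0.21, adjusted p = 0.062). A noncoding gene on the opposite strand covers 24.4% of the exon length of Spry1, so its count is uncertain. That neighbour's own row held 0 to 4 counts per library.

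Spry4, a further Sprouty brake on the Ras relay, was at 43.9 and 45.7 CPM in the E12 KO, against 32.1 and 31.4 CPM in the E12 WT. It was at 17.8 and 18.7 CPM in the E47 KO and at 15.5 and 19.3 CPM in the E47 WT, which overlapped. The rise in the E12 KO was 0.50 (SE 0.0906, adjusted p = 0.00039), and the E47 change was 0.04 (SE 0.104, adjusted p = 0.74). Their difference was 0.45 (SE 0.138, adjusted p = 0.014). That call was lost without the second E47 WT library (0.26, adjusted p = 0.17), without the first E47 KO library (0.41, adjusted p = 0.058) and with DESeq2 (0.45, adjusted p = 0.070). Between the lines Spry4 was higher in the E12 WT than in the E47 WT by 0.84 and in the E12 KO than in the E47 KO by 1.30.

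Spred1 and Spred2 encode the membrane proteins that recruit neurofibromin. Spred1 was at 58.7 and 65.1 CPM in the E12 KO, against 44.1 and 49.3 CPM in the E12 WT, and at 54.5 and 57.5 CPM in the E47 KO, against 77.2 and 82.2 CPM in the E47 WT. Like Dusp4, it was above its wild type in the E12 KO and below it in the E47 KO. The changes were 0.41 (SE 0.0834, adjusted p = 0.0010) and -0.51 (SE 0.0805, adjusted p = 7.9e-05), and they differed by 0.92 (SE 0.116, adjusted p = 1.3e-05). Dusp4 and Spred1 were the 2 members with this pattern, as were 5.30% of all genes. Spred2 was at 61.9 and 57.5 CPM in the E12 KO and 53.9 and 60.9 CPM in the E12 WT, and at 40.1 and 40.8 CPM in the E47 KO and 44.0 and 41.4 CPM in the E47 WT. It was the member that passed the test in neither knockout (0.06 with SE 0.0795 in E12, and -0.07 with SE 0.0825 in E47), and the member with the narrowest span, 1.47-fold between its highest and lowest genotype mean.

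**Figure D2:**
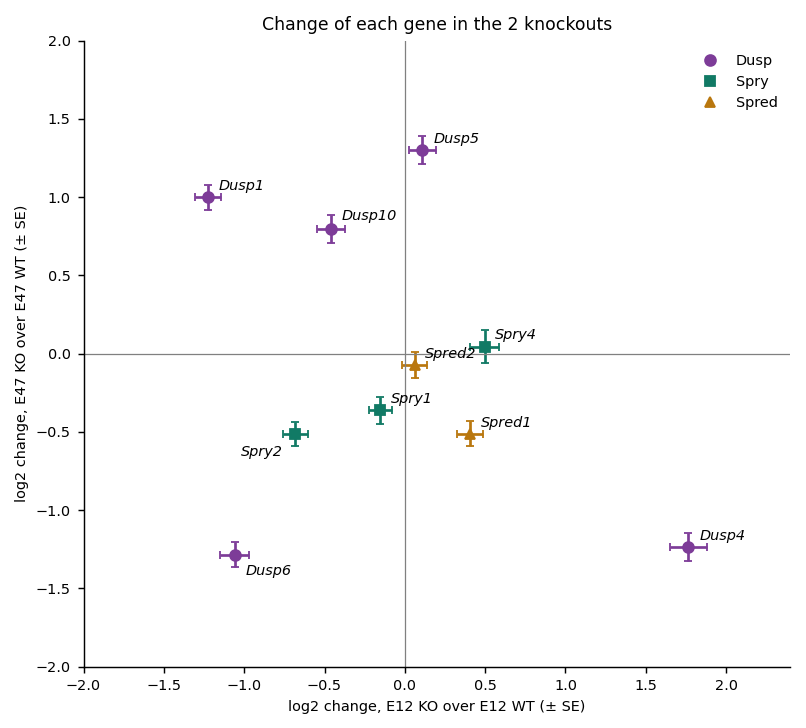
Log2 change of each gene in the E12 KO (horizontal axis) and in the E47 KO (vertical axis), each over its own wild type, with SE bars. Dusp6 and Spry2 lie lower left, Dusp1 and Dusp10 upper left, and Dusp4 and Spred1 lower right, while no member that passed both tests lies upper right.

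The difference of the changes, tested as an interaction, was past the test for 6 of the 10 genes, 3 in each direction. Over all genes it was past the test for 22.9% as higher and 25.7% as lower, 48.6% in all. Dusp4, Spred1 and Spry4 were on the higher side and Dusp1, Dusp10 and Dusp5 on the lower. The 4 others were Dusp6, Spry1, Spry2 and Spred2. No member rose in both knockouts by the edgeR calls, where 7.50% of all genes did.

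Between the wild types all 10 genes were past the test, 7 higher and 3 lower in the E12 WT than in the E47 WT, where 27.8% of all genes were higher and 27.6% lower, 55.4% in all. These comparisons share the wild-type libraries with those above. Dusp1 (1.35), Dusp5 (1.22), Dusp10 (1.08), Spry1, Spry4, Spred2 (0.43) and Spry2 (0.26) were higher in the E12 WT on the log2 scale. Dusp4 (-3.44), Dusp6 (-0.85) and Spred1 (-0.78) were lower. The Spry2 call was lost with DESeq2 (0.25, adjusted p = 0.053) and without the first E47 WT library (0.21, adjusted p = 0.074). The median size of change was 0.97 for the 10 genes and 0.37 for all genes. Between the knockouts 3 genes were higher in the E12 KO than in the E47 KO, Spry1, Spry4 and Spred2 (0.56), and 3 were lower, Dusp1 (-0.87), Dusp6 (-0.62) and Dusp4. Over all genes 25.9% were higher and 27.0% lower, 52.9% in all. There the median size of change was 0.50 for the 10 genes and 0.34 for all genes. Dusp10 was at -0.17 (adjusted p = 0.11), and at -0.29 (adjusted p = 0.028) without the first E12 KO library.

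**Figure D3:**
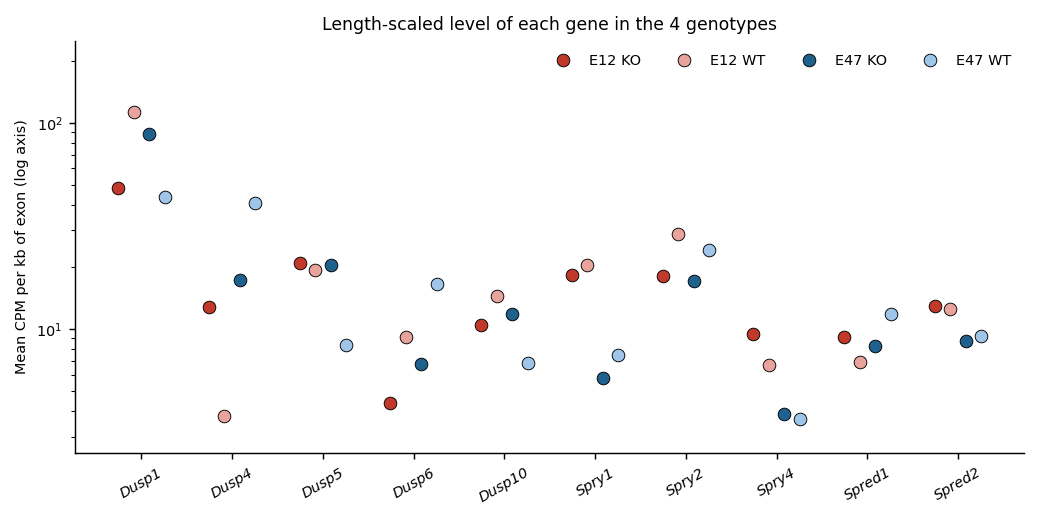
Mean level of each gene per kilobase of exon (CPM per kb, log axis) in the 4 genotypes (coloured points). Dusp1 is the highest of the 10 genes in each genotype, and Dusp4 moves from the lowest place in the E12 WT to the second place in the E47 WT.

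Per kilobase of annotated exon, Dusp1 was the most abundant of the 10 transcripts in every genotype, with 48.0 CPM per kb in the E12 KO, 112 in the E12 WT, 87.8 in the E47 KO and 43.9 in the E47 WT. The rest of the order changed with genotype. Dusp4 ranked 6 of 10 in the E12 KO (12.7 CPM per kb) and 10 in the E12 WT (3.78), and 3 in the E47 KO (17.3) and 2 in the E47 WT (40.8). Dusp6 was the least abundant in the E12 KO, at 4.39 CPM per kb, and ranked 4 in the E47 WT, at 16.5. Spry4 was the least abundant in the E47 KO (3.84) and in the E47 WT (3.66). Exon lengths are from GENCODE M21, which may differ from the annotation the authors counted on. The 10 genes lie on 10 different chromosomes, so no members are neighbours.

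Dusp4, Dusp6 and Spred1 were highest in the E47 WT, the genotype with the endothelial transcripts. All 13 of the 13 tested endothelial markers fell in the E47 KO, while in the E12 KO 4 of 13 fell. In the same libraries 10 of 12 smooth muscle markers fell and 2 rose in the E47 KO, and 7 fell and 3 rose in the E12 KO. Of 8 tested fibroblast markers 5 rose and 2 fell in the E47 KO, and 4 rose and 2 fell in the E12 KO. Of 7 tested mesothelial markers 6 rose and 1 fell in the E47 KO, and 2 rose and 5 fell in the E12 KO. Mesothelial markers summed to 874 to 894 CPM in the E12 KO against 1474 to 1584 CPM in the E12 WT. The sum was 398 to 412 CPM in the E47 KO against 205 to 222 CPM in the E47 WT. Of the E47 WT sum, Krt18 gave 122 and 111 CPM, against at most 2.52 CPM in any other library. Krt18 was the marker that fell in the E47 KO. The median log2 change of the 7 was -1.13 in the E12 KO and 3.48 in the E47 KO. Of 8 macrophage markers 4 were tested, and 1 rose and 3 fell in the E12 KO, and 1 rose and 2 fell in the E47 KO. Lyz2 was at 12.9 and 10.8 CPM in the E47 WT and at most 2.03 CPM in any other library. Cd14 went the other way, at 1.15 and 1.40 CPM in the E47 WT and at least 6.13 CPM elsewhere. Itgam had no count in any library. Of 12 proliferation genes 1 rose and 2 fell in the E12 KO, and 3 rose and 6 fell in the E47 KO. Over all genes 21.9% rose and 24.5% fell in the E12 KO, and 27.7% rose and 27.5% fell in the E47 KO. Between the wild types 6 of the 7 mesothelial markers were higher in the E12 WT and 1 was lower. Between the knockouts 6 were higher in the E12 KO and 0 lower. Of the proliferation genes 8 were higher in the E12 WT and 10 in the E12 KO, with 0 lower. Over all genes 27.8% were higher between the wild types and 25.9% between the knockouts. The part of these markers in the changes and line differences of the 10 genes was not tested. In the E12 pair the endothelial sum was 29.0 to 29.3 CPM in the E12 KO and 46.8 to 47.5 CPM in the E12 WT. Flt1 made up most of it, with means of 22.9 CPM in the E12 KO and 34.9 CPM in the E12 WT.

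**Figure D4:**
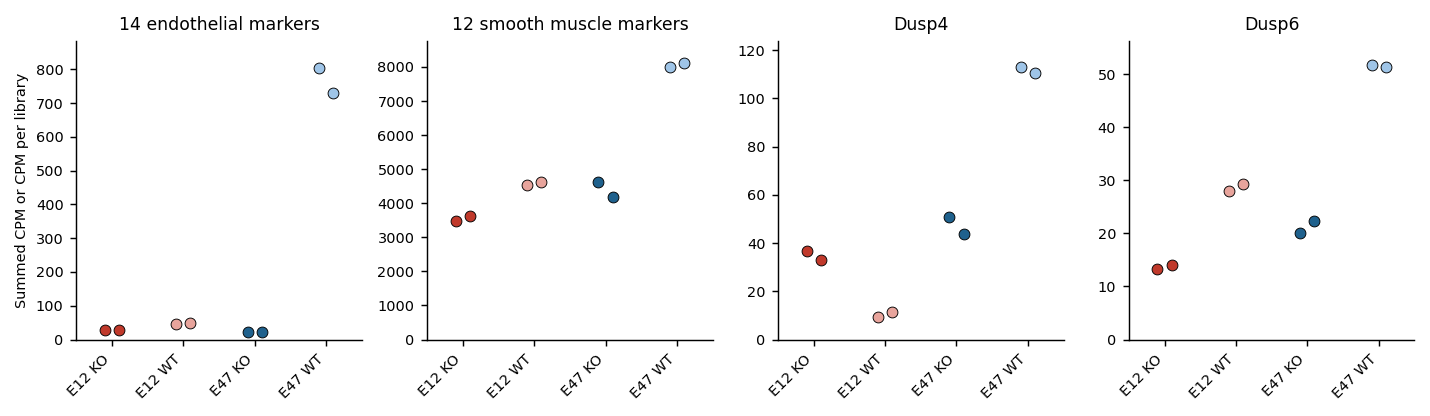
Summed CPM of 14 endothelial and 12 smooth muscle markers, and CPM of Dusp4 and Dusp6, in each library (vertical axes from 0). The E47 WT libraries are the highest in all panels. In the E12 pair, the endothelial sum, the smooth muscle sum and Dusp6 are lower in the E12 KO, and Dusp4 is higher.

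The related genes outside the 10 were read from lists chosen for the pathway, and each count below is to be read against the share of all genes called, 21.9% higher and 24.5% lower in the E12 KO and 27.7% higher and 27.5% lower in the E47 KO. Of 7 other DUSP, Sprouty and Spred genes 6 were tested, and 3 fell in the E12 KO and 5 in the E47 KO. Their median change was -0.32 and -0.82, against -0.01 and 0.01 over all genes tested. None rose by edgeR, at an unadjusted p under 0.05 or with DESeq2. Dusp7, a cytoplasmic ERK phosphatase closely related to Dusp6, was at 29.6 CPM in the E12 KO against 41.6 CPM in the E12 WT (-0.49, adjusted p = 0.0034), and at 25.7 CPM in the E47 KO against 46.3 CPM in the E47 WT (-0.86, adjusted p = 2.1e-05). Dusp8, a JNK and p38 phosphatase, fell in the E12 KO (-0.69, adjusted p = 1.9e-05) and in the E47 KO (-1.11, adjusted p = 5.6e-08). Dusp16, of the same class, fell in the E47 KO (-0.79, adjusted p = 6.6e-07), and its E12 change was -0.13 (adjusted p = 0.18).

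Of 14 tested ERK-induced genes and ETS factors, 7 rose and 2 fell in the E12 KO, and 7 rose and 2 fell in the E47 KO, with median changes of 0.18 and 0.42. Over all genes 46.4% were called in the E12 KO and 55.2% in the E47 KO. The 2 falls in the E12 KO were 4 with upper-quartile scaling and without the second E12 KO library. Phlda1, an early ERK-induced gene, was at 138 CPM in the E12 KO against 58.2 CPM in the E12 WT, and at 67.9 CPM in the E47 KO against 27.4 CPM in the E47 WT. It rose in both, by 1.25 (adjusted p = 3.7e-08) and 1.30 (adjusted p = 3.1e-08), while Dusp6 fell. Ccnd1, cyclin D1, went the way of Dusp1: it fell in the E12 KO (-0.88, adjusted p = 1.6e-07) and rose in the E47 KO (0.98, adjusted p = 3.5e-08). Etv5, an ETS factor downstream of fibroblast growth factor, fell in the E47 KO to 13.0 CPM, against 46.9 CPM in the E47 WT (-1.86, adjusted p = 4.6e-10). In the E12 KO it rose to 22.5 CPM, against 16.4 CPM in the E12 WT (0.46, adjusted p = 0.0018), and the changes differed by 2.31 (adjusted p = 3.9e-09). Its relative Etv4 rose in the E12 KO (1.38, adjusted p = 1.1e-06), and its E47 change was -0.13 (adjusted p = 0.56). Egr1, an immediate early factor, rose in the E47 KO to 580.3 CPM against 209 CPM in the E47 WT (1.47, adjusted p = 1.6e-09), and rose in the E12 KO as well (0.77, adjusted p = 2.7e-06). Of 18 other immediate early genes 5 rose and 7 fell in the E12 KO, and 10 rose and 2 fell in the E47 KO, with medians of -0.10 and 0.53. The 5 rises were 3 without the first E12 KO library.

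Upstream of the brakes, ligand genes were mostly lower in the E12 KO, where 13 of 19 tested fell and 2 rose, and divided in the E47 KO, where 9 rose and 5 fell. The medians were -0.49 and 0.17, and over all genes 24.5% fell and 21.9% rose in the E12 KO and 27.7% rose and 27.5% fell in the E47 KO. Of the 2 rises, 1 was left with DESeq2, without the second E12 WT library and without the first E12 KO library. Fgf18, a fibroblast growth factor, was at 47.9 CPM in the E12 KO against 103 CPM in the E12 WT (-1.11, adjusted p = 6.2e-09), and at 55.3 CPM in the E47 KO against 18.6 CPM in the E47 WT (1.57, adjusted p = 2.3e-10). Ereg, an activator of the epidermal growth factor receptor, fell in the E12 KO (-0.97, adjusted p = 8.0e-07) and in the E47 KO (-1.10, adjusted p = 3.4e-08). Fgf2 fell in the E47 KO (-1.30, adjusted p = 7.2e-09), and its E12 change was 0.0091 (adjusted p = 0.95).

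Receptor genes were divided, with 5 of 15 rising and 6 falling in the E12 KO and 6 rising and 8 falling in the E47 KO, and medians of -0.01 and -0.36. Called receptors were 11 of 15 in the E12 KO and 14 of 15 in the E47 KO, against 46.4% and 55.2% of all genes. Flt1 and Kdr are also on the endothelial list and Pdgfra on the fibroblast list. The 5 rises were 3 without the first E12 WT library and without the second E12 KO library. Fgfr3 fell in the E12 KO to 9.19 CPM, against 32.9 CPM in the E12 WT (-1.84, adjusted p = 3.1e-09), and fell in the E47 KO too (-0.93, adjusted p = 3.5e-06). Fgfr2 fell in the E47 KO to 65.5 CPM, against 156 CPM in the E47 WT (-1.25, adjusted p = 2.6e-09), and fell in the E12 KO too (-0.49, adjusted p = 0.00013). Egfr (0.91, adjusted p = 6.5e-07) and Met (0.98, adjusted p = 6.6e-08) rose in the E47 KO. In the E12 KO, Met rose by 0.20 (adjusted p = 0.038) and Egfr was at -0.011 (adjusted p = 0.93).

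Of 15 tested Raf, MEK, ERK and effector genes 4 rose and 3 fell in the E12 KO, and 5 fell in the E47 KO, with medians of -0.01 and -0.06. That is 7 and 5 of 15, near the 46.4% of all genes called in the E12 KO and below the 55.2% called in the E47 KO. The 4 rises in the E12 KO were 7 with total counts only and 2 with DESeq2. In the E47 KO none rose by edgeR, at an unadjusted p under 0.05 or with DESeq2, but 1 did with upper-quartile scaling and 4 with total counts only. Braf fell in the E47 KO to 56.7 CPM, against 151 CPM in the E47 WT (-1.41, adjusted p = 1.6e-07), and fell in the E12 KO (-0.58, adjusted p = 0.0014), where the E12 WT libraries were apart, at 69.6 and 101.5 CPM. Map2k1, which encodes MEK1, fell in the E12 KO by 0.45 (adjusted p = 9.9e-05), and its E47 change was -0.077 (adjusted p = 0.37). Of 16 tested adaptor and Ras genes 2 rose and 6 fell in the E12 KO, and 3 rose and 7 fell in the E47 KO, with medians of -0.13 and -0.18. The 2 rises were 6 with total counts only, and 1 with DESeq2 or without the second library of the E12 WT or of the E12 KO. Mras fell in the E12 KO (-0.60, adjusted p = 1.6e-06) and rose in the E47 KO (0.92, adjusted p = 1.5e-08). The JNK, p38 and ERK5 branch had 3 rises and 3 falls of 15 in the E12 KO, and 8 rises and 4 falls in the E47 KO, with medians of 0.08 and 0.24. The 3 falls in the E12 KO were 1 with total counts only, without the second E12 WT library or without the first E12 KO library. Mapk13, a p38 kinase gene, was -1.81 in the E12 KO (adjusted p = 4.4e-07) and 1.41 in the E47 KO (adjusted p = 1.1e-06). Of 17 other inhibitors 4 rose and 6 fell in the E12 KO, and 3 rose and 8 fell in the E47 KO, with medians of -0.20 and -0.24. The 6 falls were 3 with total counts only, with DESeq2 or without the second E12 WT library, and 2 without the first E12 KO library. Errfi1, an inhibitor of the epidermal growth factor receptor, rose in the E47 KO (0.92, adjusted p = 1.0e-07) and fell in the E12 KO (-0.20, adjusted p = 0.034). Rasa1, a Ras inactivator, rose in the E12 KO (0.83, adjusted p = 6.0e-07) and fell in the E47 KO (-0.34, adjusted p = 0.0013), to 68.5 CPM against 87.0 CPM in the E47 WT. Over all genes 21.9% rose and 24.5% fell in the E12 KO, and 27.7% rose and 27.5% fell in the E47 KO.

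**Figure D5:**
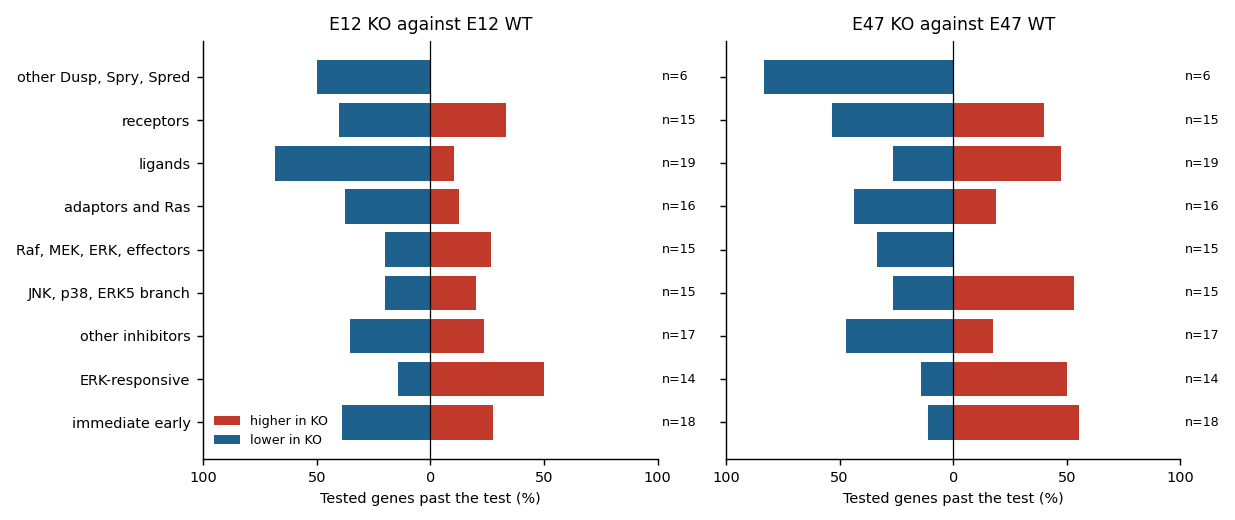
Share of the tested genes of each pathway list that were past the test (horizontal axis, %), higher in the knockout to the right and lower to the left, for the E12 KO (left panel) and the E47 KO (right panel), with the number tested. Ligands lean to lower in the E12 KO, and the other DUSP, Sprouty and Spred genes have bars only on the lower side.

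The genes whose profiles lay nearest to 2 of the members were found over the 8 libraries, as the root mean square distance between log2 CPM profiles centred on their own means. For Dusp6 these were Foxc2, a forkhead factor gene (0.0588), Ereg (0.0769) and Pkp1, a desmosome protein gene (0.131). Foxc2 was at 39.3 and 39.0 CPM in the E12 KO, against 79.5 and 79.7 CPM in the E12 WT, and at 54.1 and 63.6 CPM in the E47 KO, against 157 and 153 CPM in the E47 WT. Dusp4, the member with the widest span, had as nearest genes Gprin3 (0.214), the transcription factor gene Mecom (0.249) and Sp100, a nuclear body protein gene (0.324). The member nearest to Dusp6 was Spry2, at a distance of 0.55, and 1650 of 12571 other genes lay closer. For Dusp4 the nearest member was Spred1, at 0.979, with 725 genes closer. Such likeness rests on 4 genotypes and describes these libraries only.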

How the data were processed

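PolyA-enriched libraries made without keeping strand were sequenced from 8 extractions of cultured mouse aortic smooth muscle cells, per the labels' protocols. The authors deposited whole-number gene counts that are not normalized, 1 column per library. The submitters' processing notes name FastQC, HISAT, featureCounts with GRCm38 (mm10) as the build. Their versions and settings, the annotation and the handling of reads that match several places are not stated.

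These counts entered edgeR 4.0.16 (R 4.3.3). The whole table was filtered with filterByExpr, scaled by TMM and fitted with a 4-group model without covariates (common biological coefficient of variation 0.0598, 4 residual degrees of freedom). Contrasts were tested by the quasi-likelihood F test with Benjamini-Hochberg adjustment over all 13992 genes. The SE is the log2 change divided by the root of F. The scripts were tested on simulated data. DESeq2 1.42.0 was an alternative, beside other scalings, no filter, fits of 2 groups and leaving out each library. A fit without both E47 WT libraries was added after seeing the data. Within a genotype, the libraries differed by more than counting noise, and most in the E12 WT, with a chi-square per degree of freedom of 13.6 there and 4.75 to 5.07 in the others.

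Symbols turned into dates carried 0.153% to 0.198% of counts and stayed in the totals. The members and lists were chosen with earlier results of these data known. The text names all 10 members, and from each list at most the 4 genes with the smallest p in a comparison. Exceptions are the marker genes Acta2, Cald1, Myh11, Krt18, Lyz2, Cd14, Cdh5, Itgam, Kdr, Flt1 and Pdgfra, chosen after their values were seen. Gene positions and exon lengths are from GENCODE M21 (GRCm38), promoters from RefSeq.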

Additional observations from a re-analysis of the deposited data

Results flagged for a closer look

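The E12 and E47 changes of 6 genes differed by the test of the difference itself, with adjusted p-values from edgeR's quasi-likelihood test as given above. On the log2 scale, the E12 change minus the E47 change was 3.0 for Dusp4, 0.92 for Spred1 and 0.45 for Spry4. It was -2.22 for Dusp1, -1.26 for Dusp10 and -1.19 for Dusp5. For Dusp4, Spred1, Dusp1 and Dusp10 both changes were past the test, with opposite signs. Each value is also the difference between the knockouts minus that between the wild types. E12 WT against E47 WT, the differences were -3.44 for Dusp4, -0.78 for Spred1 and 0.84 for Spry4. They were 1.35 for Dusp1, 1.08 for Dusp10 and 1.22 for Dusp5. E12 KO against E47 KO, they were -0.44, 0.14, 1.30, -0.87, -0.17 and 0.03 in the same order. The part of the wild-type differences in these results was not tested. With 2 libraries per genotype, no library was examined as an outlier.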

How the results depend on the processing

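The members past the test numbered within 1.5 times the main count in all 142 alternative counts, and 698 of 710 alternative log2 changes kept their direction and side of the threshold. The E12 and E12 KO against E47 KO counts without both E47 WT libraries were also unchanged. Changes of sign occurred only among values not past the test. For Spred2 the E47 change was 0.082 with total counts only, and the E12 change ran from -0.028 to 0.15 over the fits without a library, turning without the first E12 WT library. Spry4 in the E47 KO ran from -0.079 to 0.23 in such fits, turning without the first E47 WT library. Dusp5, between the knockouts, was at -0.017 with upper-quartile scaling and from -0.042 to 0.098 without a library, turning without the first E12 KO library. The calls lost or gained for Spry1, Spry2, Spry4 and Dusp10 are given with their results, and the cause was not tested. Of 1278 alternative counts for the pathway lists, 48 moved by over 1.5 times. Beside those given with the lists, the E12 KO rises in the JNK, p38 and ERK5 branch and the E47 KO rises among adaptor and Ras genes were 6 and 5 with total counts only. In the E47 KO, the other inhibitors had 5 rises and 5 falls with total counts only. Leaving out a library leaves 1 in its group, which is taken to vary like the others. No paired analysis was possible because the labels number the libraries from 1 to 8 with no number shared between genotypes.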
